A study of Mus musculus with 6 samples.

Results

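The genes described here number 37 and serve Fanconi anemia crosslink repair, homologous recombination and the DNA damage checkpoints. The list was chosen with earlier results of these data known, and its genes were taken from the deposited tables by symbol. Shares of the list set beside those of all genes are therefore descriptions and not tests. All 37 had reads in each of the 6 cultures and all 37 passed the filter on low counts, among 17060 genes listed in any culture and 12306 tested. Lineage-negative BM cells, taken from WT mice, were grown for 48 hours in medium with EPO, which drives them toward erythroblasts. The medium held either NUP-17d at 10 μM, a small molecule inhibitor of the protein Plek2 (pleckstrin-2), or its vehicle DMSO, and 3 cultures were sequenced for each. All cultures of both groups came from WT cells and held EPO, and their sex and age are not given in the sources used here. It is also not stated whether the 3 cultures of a group came from separate animals, so every p-value here measures the spread between these samples, which may be technical.

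The Fanconi pathway removes covalent links between the strands of DNA. Its core complex is a ubiquitin ligase that is brought to stalled replication forks by Fancm and marks a clamp made of Fancd2 and Fanci, after which the link is cut out and the broken strand is restored by homologous recombination. In that repair Brca1, Bard1, Palb2 and Brca2 prepare single-stranded DNA for the search for a matching strand, the paralogs Rad51b, Rad51c, Rad51d, Xrcc2 and Xrcc3 assist them, and Rad54l and Blm act on the joined molecules. Alongside, the Mre11a-Rad50-Nbn complex senses breaks and turns on the kinase Atm and its target Chek2, while exposed single-stranded DNA turns on Atr and Chek1. Inherited loss of the Fanconi genes is known for BM failure with anemia, and red cell precursors divide fast and depend on these pathways at each S phase. In RNA from a whole culture, fewer cells of a type and less RNA per cell cannot be told apart.

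Many genes of this kind are read by E2F factors at the start of S phase, so the promoters were searched for E2F words. The RefSeq promoter table on GRCm38.p6 held windows of 300 bases, 250 before and 50 after a start site, for 30 of the 37 genes. Rad50, Tipin, Xrcc2, Rad9a, Fancd2, Rad51d and Nbn had no window there. The letters TTTCCCGC, TTTGGCGC, TTTCGCGC or TTTGCCGC, on either strand, stood in the windows of 7 of the 30 (23.3%), namely Fancg, Bard1, Brca2, Rad51c, Chek2, Topbp1 and Clspn. The same words stood in 2.60% of the 27025 genes with a window and in 4.77% of the 9932 tested genes with one. The windows of 4 of these genes are shown as 2 pairs, Clspn and Topbp1 with GCGCGAAA and Rad51c and Chek2 with GCGGGAAA, because in each pair 1 gene, Clspn or Rad51c, was called lower with NUP-17d after composition scaling and the other was not called. Rad51c also has another window, not shown, with TTTCGCGC starting 11 bases after its start site, which is GCGCGAAA on the other strand. GCGGGAAA, on either strand, also stood in Brca2, Bard1 and Fancg, which were not called. Capitals mark the E2F word, and each sequence is written 5′ to 3′ on the strand of its gene. In the windows shown the word starts 21 bases after the start site in Clspn, 5 before it in Rad51c, 152 before it in Chek2 and 129 before it in Topbp1.
Clspn, chr4:126556730-126557029, plus strand: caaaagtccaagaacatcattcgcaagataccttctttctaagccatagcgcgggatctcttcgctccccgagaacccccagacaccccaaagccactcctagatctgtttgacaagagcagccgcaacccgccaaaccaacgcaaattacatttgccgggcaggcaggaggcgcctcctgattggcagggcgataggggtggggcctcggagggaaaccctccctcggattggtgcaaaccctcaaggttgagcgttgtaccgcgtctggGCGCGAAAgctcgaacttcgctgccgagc
Rad51c, chr11:87404905-87405204, minus strand: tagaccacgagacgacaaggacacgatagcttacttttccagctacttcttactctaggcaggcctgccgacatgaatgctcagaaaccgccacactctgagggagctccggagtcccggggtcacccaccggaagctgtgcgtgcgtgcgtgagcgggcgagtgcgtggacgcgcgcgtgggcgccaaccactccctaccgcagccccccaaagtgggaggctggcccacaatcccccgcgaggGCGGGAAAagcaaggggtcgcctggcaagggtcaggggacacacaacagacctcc
Chek2, chr5:110839733-110840032, plus strand: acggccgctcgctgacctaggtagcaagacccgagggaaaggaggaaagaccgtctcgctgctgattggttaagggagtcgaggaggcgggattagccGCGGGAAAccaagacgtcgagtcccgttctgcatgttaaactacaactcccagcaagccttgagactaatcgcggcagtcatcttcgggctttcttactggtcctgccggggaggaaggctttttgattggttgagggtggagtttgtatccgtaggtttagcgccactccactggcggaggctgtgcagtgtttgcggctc
Topbp1, chr9:103305077-103305376, plus strand: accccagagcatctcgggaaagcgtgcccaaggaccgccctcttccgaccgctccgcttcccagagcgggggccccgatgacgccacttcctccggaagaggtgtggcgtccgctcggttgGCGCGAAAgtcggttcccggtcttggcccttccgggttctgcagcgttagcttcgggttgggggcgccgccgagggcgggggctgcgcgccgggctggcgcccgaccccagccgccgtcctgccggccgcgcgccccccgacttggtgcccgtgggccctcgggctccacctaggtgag

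Of the 7 genes with an E2F word, 2 were called lower with TMM, beside 8 of the 30 genes with a window. The letters CCAAT stood in 18 of the 30 genes (60.0%, against 43.3% of tested genes), the ETS word CCGGAAG in 8 (26.7%, against 20.2%), the CHR word TTTGAA in 3 (against 14.8%) and the NRF1 word in 2 (6.67%, against 11.5%). A word in a window is a description of the letters and not a site of binding.

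Depth was even, with 20278433 to 20419018 estimated reads in a DMSO culture and 20076409 to 20170197 in a NUP-17d culture. Hemoglobin genes took 18.28% to 20.28% of them with DMSO and 11.77% to 13.07% with NUP-17d. The composition scaling of edgeR (TMM) gave factors of 0.8865 to 0.9302 and 1.082 to 1.107, and levels are given as TMM-normalized CPM, the counts scaled to a common library size. The 20 erythroid markers summed to 222900 to 257200 CPM with DMSO and 123600 to 138100 with NUP-17d, and Hbb-bs, Hba-a1, Slc4a1 and Alas2 were among the 20 of 20 called lower with TMM and the 18 of 20 called lower with library totals only. Neutrophil and monocyte markers (16, led by Lyz2 and Mpo) summed to 7112 to 7281 and 7508 to 7785 CPM, with 4 called higher and 3 lower with TMM and 12 higher and 0 lower with library totals only, and megakaryocyte markers (8, led by Itga2b and Pf4) to 471.2 to 521.1 and 547.5 to 567.1, with 6 called higher with TMM and 8 with library totals only. Stem and progenitor markers summed to 611.5 to 618.9 and 626.3 to 647.9 CPM, mast cell and basophil markers to 315.6 to 328.3 and 292.4 to 302.6, and lymphoid markers to 28.68 to 32.05 and 26.22 to 26.77. Among all tested genes, 16.4% were called higher and 18.9% lower with TMM, and 68.7% higher and 5.34% lower with library totals only. No marker was at 0 in any culture, and Cma1, Tpsb2, Mecom, Cd3g and Klrb1c had too few reads to be tested.

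Of these repair genes 10 had lower levels with NUP-17d and 0 had higher levels after composition scaling, whereas 1 was lower and 24 were higher with library totals only. edgeR's quasi-likelihood test called Rad1, Clspn, Fancd2, Tipin, Blm, Fancm, Brca1, Rad51c, Chek1 and Fanci lower at an adjusted p under 0.05, which is 10 of 37 (27.0%) beside 18.9% of all tested genes called lower and 16.4% called higher. At an unadjusted p under 0.05 edgeR had 12 lower and 1 higher, Fance, and DESeq2 called 0 higher. The falls were small, with log2 fold changes from -0.41 to -0.16, and the median over the 37 was -0.05 beside 0.01 for all tested genes. Every NUP-17d culture lay below every DMSO culture for 12 of the 37, beside 23.2% of all tested genes, and Rad51b alone of the 37 had every NUP-17d culture above every DMSO culture, beside 22.8% of all tested genes. The 37 together summed to 1203 to 1212 CPM with DMSO and 1114 to 1144 CPM with NUP-17d.

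The scaling decided the sign of 22 of the 37 fold changes, which were below 0 with TMM and above 0 with library totals only. With library totals only, the median of all tested genes moved to 0.28 and 68.7% of them were called higher and 5.34% lower, and 24 of the 37 were called higher, Rad1 alone was called lower and the median of the 37 was 0.22. Limma on log2(FPKM + 1), which has no composition scaling either, called 68.4% of all tested genes and 24 of the 37 higher. Relative to the median of all tested genes, 29 of the 37 were below it under both scalings, and the median of the 37 lay at -0.065 from it under each. The 10 genes called lower were each below the all-gene median under both scalings. Changing the scaling moved the 37 genes and the all-gene median by nearly the same amount, 0.27 on the log2 scale. These places relative to the median could therefore hardly differ and are no separate evidence. Below the all-gene median were 31 of the 37 with DESeq2 and 25 with limma on log2(FPKM + 1). DESeq2, which called 15.0% of its tested genes lower, called 7 of the 10 lower and lost Fanci, Rad51c and Chek1.

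**Figure D1:**
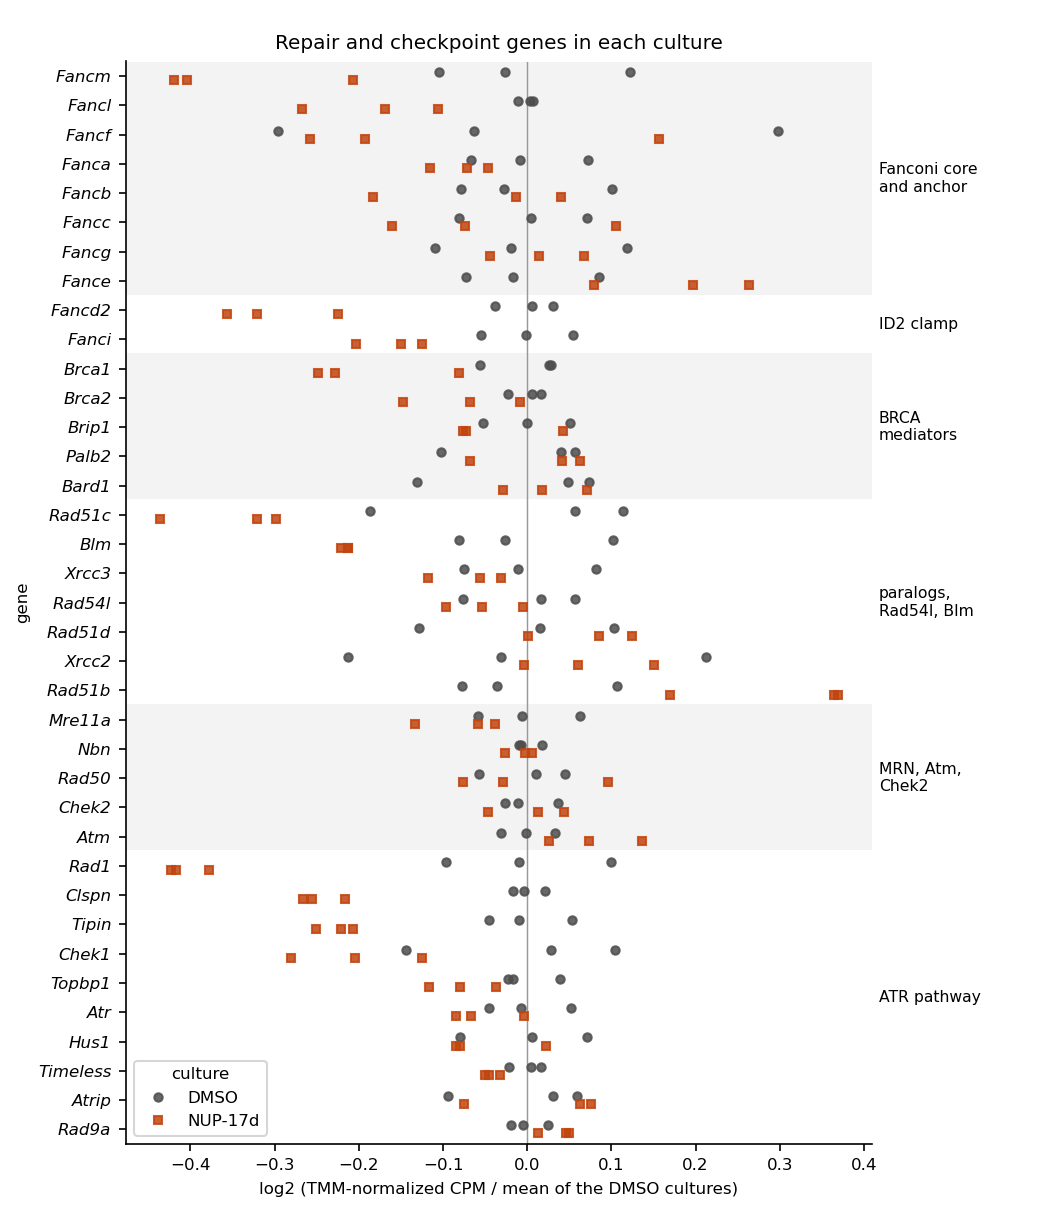
Level of each of the 37 genes in each culture, as the log2 of TMM-normalized CPM over the mean of the 3 DMSO cultures, with DMSO cultures as circles and NUP-17d cultures as squares, grouped by role. The NUP-17d squares of Rad1, Clspn, Tipin, Fancd2, Blm, Fancm, Brca1, Rad51c and Fanci lie to the left of every DMSO circle of the same gene on this scale, which with library totals only holds a different sign for 5 of these 9.

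The Fanconi core complex and its anchor Fancm made up 8 of the genes. With TMM 1 of 8, Fancm, was called lower and 0 higher, beside 18.9% of all tested genes called lower. The median log2 fold change was -0.06 with TMM and 0.20 with library totals only. Fancm (Entrez 104806, chr12:65074110-65131842) is the DNA translocase that brings the core complex to a stalled fork. Its level was 22.4, 20.2 and 19.1 CPM in DMSO cultures 1, 2 and 3 and 17.8, 15.4 and 15.5 CPM in NUP-17d cultures 1, 2 and 3. All 3 treated cultures were below all 3 control cultures, and the log2 fold change was -0.34 ± 0.07 (SE, n = 3 cultures per group, edgeR adjusted p = 0.00055), and -0.07 with library totals only (adjusted p = 0.385). Fancl carries the ubiquitin ligase activity of the complex, and its level was 10.7, 10.5 and 10.6 CPM with DMSO and 8.82, 9.86 and 9.44 CPM with NUP-17d. These groups did not overlap either, but the log2 fold change of -0.18 ± 0.08 did not pass the test (edgeR adjusted p = 0.105), its sign changed to 0.09 with library totals only, and 13.7% of the exon bases of Fancl also belong to Vrk2 on the other strand. Fance, the subunit that contacts Fancd2, had 12.0, 10.8 and 11.2 CPM with DMSO and 11.9, 13.0 and 13.6 CPM with NUP-17d. The groups of Fance overlapped at 1 culture, and the log2 fold change was 0.18 ± 0.08 (edgeR adjusted p = 0.0797), and 0.45 with library totals only (adjusted p = 2.8e-05). The other 5 were not called and had overlapping groups: Fancg at 0.01, Fancc at -0.04, Fancb at -0.05, Fanca at -0.08 and Fancf at -0.09 on the log2 scale. Fancf and Fancb were among the least abundant, with 67 to 113 and 107 to 142 reads per culture, and the 95% intervals of their log2 fold changes reached from -0.41 to 0.23 and from -0.28 to 0.19.

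Both subunits of the clamp that the core complex ubiquitinates were called lower by edgeR with TMM, beside 18.9% of all tested genes. A list of 2 genes is too short to set against this share, and DESeq2 called 1 of the 2 lower, Fancd2. Their median log2 fold change was -0.23, and with library totals only it was 0.04, with neither called. Fancd2 (Entrez 211651, chr6:113531640-113597020) had 38.7, 37.6 and 39.4 CPM with DMSO and 33.0, 30.1 and 30.9 CPM with NUP-17d. The treated cultures all lay below the control cultures, with a log2 fold change of -0.30 ± 0.05 (edgeR adjusted p = 3.3e-05) that stood at -0.03 with library totals only (adjusted p = 0.601). Its partner Fanci (Entrez 208836, chr7:79392312-79450266) had 28.0, 26.0 and 27.0 CPM with DMSO and 24.3, 23.4 and 24.8 CPM with NUP-17d. The gap between its groups was narrower, the log2 fold change was -0.16 ± 0.06 (edgeR adjusted p = 0.0280), and the sign turned to 0.11 with library totals only. The call of Fanci ended without DMSO culture 1, DMSO culture 3 or NUP-17d culture 2 (edgeR adjusted p = 0.12, 0.0627 and 0.106). Fanci shares 16.0% of its exon bases with Polg on the other strand, and the sources used here do not say whether the counting used strand.

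Of the 5 BRCA mediators, Brca1 was called lower with TMM and the others were not called, beside 18.9% of all tested genes called lower. This list too is short to set against that share. The median log2 fold change was -0.04 with TMM and 0.23 with library totals only. Brca1 (Entrez 12189, chr11:101488761-101551955), the ligase that promotes end resection and brings in Palb2, had 62.7, 59.1 and 62.6 CPM with DMSO and 58.1, 51.7 and 52.4 CPM with NUP-17d. NUP-17d culture 1 came close to DMSO culture 2, but the groups did not overlap, and the log2 fold change was -0.18 ± 0.05 (edgeR adjusted p = 0.00312), turning to 0.08 with library totals only (adjusted p = 0.138). Brca2, a mediator of strand exchange, had 39.8, 39.5 and 38.7 CPM with DMSO and 39.1, 37.5 and 35.5 CPM with NUP-17d. The groups of Brca2 overlapped and its log2 fold change was -0.07 ± 0.05 (edgeR adjusted p = 0.262). Brip1, a helicase that binds Brca1, had 24.1, 25.9 and 25.0 CPM with DMSO and 25.7, 23.8 and 23.7 CPM with NUP-17d, also overlapping. Its log2 fold change was -0.04 with a 95% interval from -0.15 to 0.08. Bard1, the obligate partner of Brca1, stood at 0.02 (95% interval -0.10 to 0.14) and Palb2, the bridge between Brca1 and Brca2, at 0.01 (95% interval -0.15 to 0.17).

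Among the 5 paralogs, Rad54l and Blm, 2 of 7 were called lower and 0 higher with TMM, beside 18.9% of all tested genes called lower. The median log2 fold change of the 7 was -0.05 with TMM and 0.22 with library totals only. Blm (Entrez 12144, chr7:80454993-80535148), the helicase that dissolves joined DNA molecules, had 86.8, 94.9 and 83.6 CPM with DMSO and 76.3, 75.9 and 76.3 CPM with NUP-17d. The treated cultures were nearly equal to each other and all below the control cultures, with a log2 fold change of -0.22 ± 0.04 (edgeR adjusted p = 0.000271) that turned to 0.05 with library totals only (adjusted p = 0.352). Rad51c (Entrez 114714, chr11:87376645-87404954), the paralog present in both paralog complexes, had 10.1, 8.17 and 9.67 CPM with DMSO and 6.87, 7.44 and 7.56 CPM with NUP-17d. Its log2 fold change was -0.35 ± 0.10 (edgeR adjusted p = 0.00834), without overlap, at 152 to 182 reads per culture, and it stood at -0.08 with library totals only (adjusted p = 0.467). Without DMSO culture 1 the call of Rad51c ended (edgeR adjusted p = 0.0535).

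Rad51b had the opposite sign to Rad51c but did not pass the test with TMM. It was the lowest of the 37 per transcript length and in counts, with 57 to 66 reads per DMSO culture and 81 to 92 per NUP-17d culture, or 3.15, 3.48 and 3.06 CPM against 4.16, 3.63 and 4.17 CPM. Every treated culture of Rad51b was above every control culture, and the log2 fold change of 0.30 ± 0.15 missed the threshold (edgeR adjusted p = 0.116) but was 0.57 with library totals only (adjusted p = 0.0015). Rad51d and Xrcc2, which with Rad51b and Rad51c form a complex of paralogs, both stood at 0.07, and Xrcc3, which pairs with Rad51c in another, at -0.07. Rad54l, a motor protein of strand exchange, stood at -0.05. The groups of these last 4 genes overlapped.

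In the break-sensing arm 0 of 5 genes were called lower or higher with TMM, by edgeR (0 also at an unadjusted p under 0.05) or by DESeq2, and the median log2 fold change was -0.00. With TMM edgeR called 18.9% of all tested genes lower and 16.4% higher, and 5 genes are too few to set against these shares. All 5 were called higher with library totals only, beside 68.7% of all tested genes. Their median was then 0.27, close to the 0.28 of all tested genes. Atm, the kinase that answers breaks, had 37.6, 36.0 and 36.7 CPM with DMSO and 40.4, 38.6 and 37.4 CPM with NUP-17d. These groups overlapped at 1 culture, and the log2 fold change was 0.08 ± 0.05 (edgeR adjusted p = 0.215). Mre11a, the nuclease of the sensor complex, had 37.6, 39.4 and 36.3 CPM with DMSO and 36.8, 34.4 and 36.3 CPM with NUP-17d. Its log2 fold change was -0.08 ± 0.05 (edgeR adjusted p = 0.248). Nbn, which ties that complex to Atm, had 27.4, 27.9 and 27.4 CPM with DMSO and 27.0, 27.7 and 27.5 CPM with NUP-17d. The 95% intervals of the log2 fold change were -0.12 to 0.10 for Nbn, -0.10 to 0.10 for Rad50 and -0.09 to 0.10 for Chek2, so with TMM a change as large as that of Rad1 or Fancd2 lay outside each of these intervals.

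The Atr pathway was the largest of the role groups. With TMM, 4 of its 10 genes were called lower and 0 higher, beside 18.9% and 16.4% of all tested genes. With library totals only 1 was lower and 6 were higher, beside 5.34% and 68.7% of all tested genes. The median log2 fold change of the 10 was -0.06 with TMM and 0.20 with library totals only. Rad1 (Entrez 19355, chr15:10486018-10499063), a subunit of the ring-shaped clamp that turns on Atr, had 32.4, 34.4 and 37.1 CPM with DMSO and 25.9, 26.6 and 25.8 CPM with NUP-17d. It had the lowest p of the 37, without overlap, with a log2 fold change of -0.41 ± 0.06 (edgeR adjusted p = 1.5e-06), and with library totals only it was still lower, at -0.14 (adjusted p = 0.0467). Clspn (Entrez 269582, chr4:126556957-126594533), the adaptor claspin through which Atr reaches Chek1, had 79.9, 77.9 and 78.5 CPM with DMSO and 67.8, 65.5 and 66.0 CPM with NUP-17d. The groups of Clspn lay far apart against their spread, with a log2 fold change of -0.25 ± 0.04 (edgeR adjusted p = 1.5e-05), but its unscaled reads were alike, 1446 to 1477 and 1440 to 1500 per culture, and library totals only gave 0.02. Tipin (Entrez 66131, chr9:64281491-64305422), which with Timeless travels with the fork, had 50.5, 54.1 and 51.8 CPM with DMSO and 44.7, 45.2 and 43.8 CPM with NUP-17d. Its log2 fold change was -0.23 ± 0.04 (edgeR adjusted p = 0.000202), again without overlap, and turned to 0.04 with library totals only.

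Chek1 (Entrez 12649, chr9:36708482-36726658), the kinase that carries the Atr signal, had 22.2, 25.0 and 26.4 CPM with DMSO and 20.2, 21.3 and 22.5 CPM with NUP-17d. Among the 10 genes called lower it was the one with overlapping groups, with a log2 fold change of -0.20 ± 0.07 (edgeR adjusted p = 0.0169) that turned to 0.06 with library totals only. The call of Chek1 ended without DMSO culture 2, DMSO culture 3 or NUP-17d culture 1 (edgeR adjusted p = 0.0618, 0.127 and 0.0781). Topbp1, the activator of Atr, was the most abundant of the 37 on the per-length scale, with 160, 153 and 154 CPM with DMSO and 152, 147 and 144 CPM with NUP-17d. Its groups did not overlap, and the log2 fold change of -0.08 ± 0.04 did not pass the test (edgeR adjusted p = 0.0994). Timeless, the partner of Tipin, also had groups that did not overlap, but by a margin smaller than the test allows for, at -0.04 ± 0.05 (edgeR adjusted p = 0.499). The remaining 4, Atr at -0.05, its partner Atrip at 0.02, and the clamp subunits Hus1 at -0.05 and Rad9a at 0.04, had overlapping groups. For Atrip, 16.0% of the exon bases also belong to Trex1 on the same strand, so reads there could be split between the genes. Exon bases shared with a gene on the other strand came to 18.6% for Fancc, 15.4% for Rad54l, 15.0% for Fancf, 10.5% for Fanca and 9.53% for Rad9a. They came to 7.07% for Fancm, 5.64% for Palb2, 3.26% for Fance and 3.24% for Fancd2, and to 2.60% or less for Mre11a, Timeless, Xrcc3 and Brca2. For Atr 5.78% was shared, a part of it on the same strand. The share was 0 for Brca1, Rad51c, Blm, Rad1, Chek1, Clspn and Tipin.

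**Figure D2:**
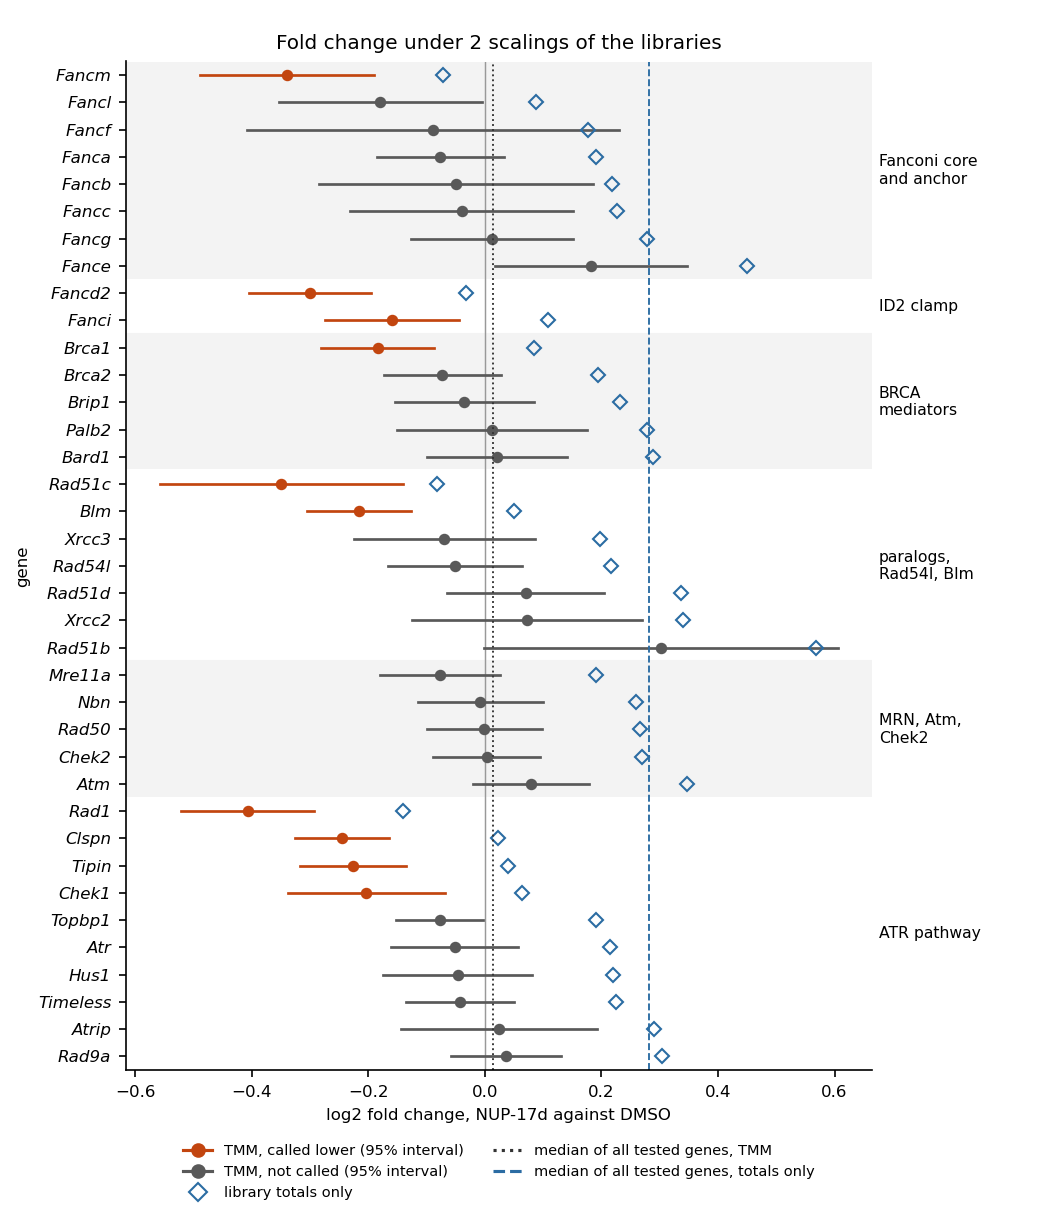
Log2 fold change of each gene, NUP-17d against DMSO, with TMM scaling (circles with 95% intervals, orange where called lower) and with library totals only (open diamonds), and the median of all tested genes for each scaling as a dotted line (0.01) and a dashed line (0.28). Each diamond lies to the right of its circle, and with library totals only Fanci, Brca1, Blm, Chek1, Clspn and Tipin lie above 0 although their TMM intervals lie below 0.

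A ratio between 2 genes of a culture does not depend on how the libraries are scaled, so the counts of partners within a complex were set against each other. The 17 pairs were chosen after the values of single genes had been seen. In each pair without overlap the first gene was one called lower with TMM, so the direction follows from the single-gene values. These ratios are therefore no separate evidence, and the share without overlap among other gene pairs was not counted. Rad1 had 0.816, 0.877 and 0.916 counts per count of Rad9a with DMSO and 0.631, 0.663 and 0.627 with NUP-17d, and 1.49, 1.51 and 1.81 counts per count of Hus1 with DMSO and 1.26, 1.21 and 1.27 with NUP-17d. The treated cultures were lower for both, by -0.44 and -0.36 on the log2 scale, whereas Hus1 to Rad9a overlapped at -0.08. These ratios were not corrected for transcript length, which for Rad1 differed by -8.71% with NUP-17d, as described below. At the fork, Tipin had 1.22, 1.33 and 1.24 counts per count of Timeless with DMSO and 1.12, 1.12 and 1.10 with NUP-17d, and Clspn had 1.93, 1.92 and 1.88 against 1.70, 1.63 and 1.66. Neither ratio overlapped between the groups, and the log2 differences were -0.18 and -0.20.

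The ratio of the checkpoint kinases, Chek1 to Chek2, was 0.471, 0.525 and 0.534 with DMSO and 0.434, 0.430 and 0.464 with NUP-17d, a log2 difference of -0.20 without overlap. Chek1 alone overlapped between the groups in CPM, and set against Chek2 it did not. Brca1 to Bard1 was 2.13, 2.31 and 2.16 with DMSO and 2.12, 1.76 and 1.85 with NUP-17d (log2 difference -0.21), and Fancd2 to Fanci was 1.38, 1.45 and 1.46 with DMSO and 1.36, 1.28 and 1.25 with NUP-17d (log2 difference -0.14). In both, 1 treated culture lay just under the lowest control culture. Rad51c was lower without overlap against Rad51b, Rad51d and Xrcc2 (log2 differences -0.65, -0.42 and -0.43), and its ratio to Xrcc3 overlapped (-0.28). Fancm to Fanca was 0.686, 0.681 and 0.620 with DMSO and 0.603, 0.512 and 0.542 with NUP-17d, without overlap (-0.26). The ratios of Atrip to Atr (0.07), Palb2 to Brca2 (0.09), Rad50 to Mre11a (0.07) and Nbn to Mre11a (0.07) overlapped. With 3 cultures against 3, a two-sided exact permutation test of one ratio cannot go below p = 0.1, which is the value of each ratio that did not overlap, and adjusted over the 17 pairs these became 0.154, so no ratio passed a threshold of 0.05.

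**Figure D3:**
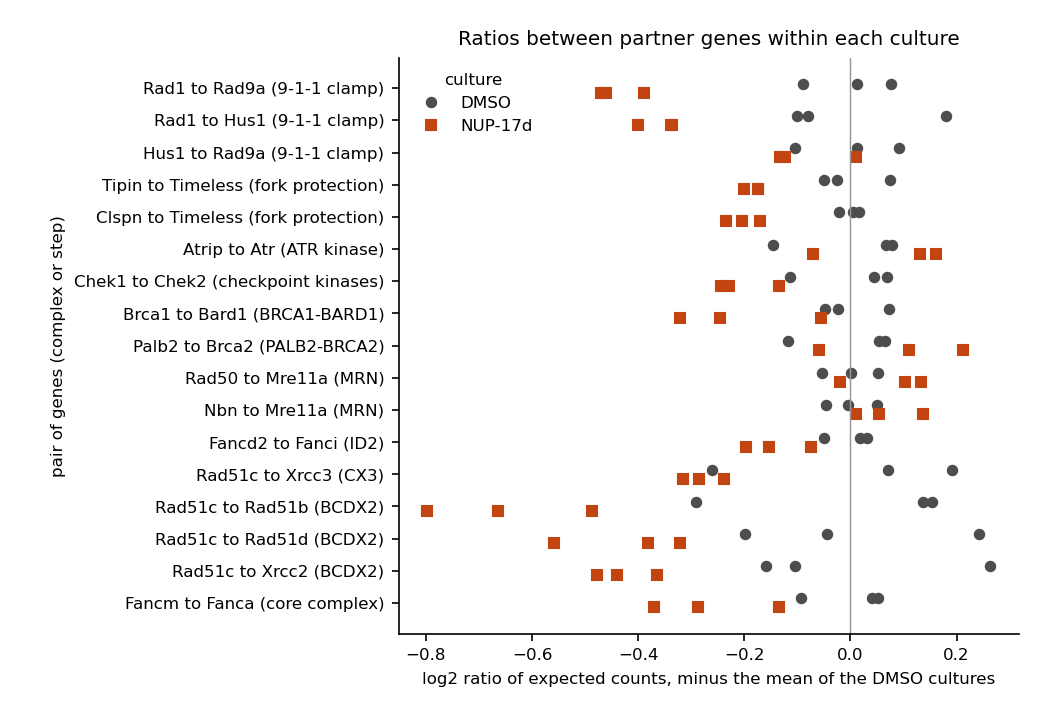
Log2 ratio of the counts of 2 partner genes in each culture, minus the mean of the 3 DMSO cultures, for 17 pairs named with their complex, with DMSO cultures as circles and NUP-17d cultures as squares. The NUP-17d squares of Rad1 to Rad9a lie near -0.44 and those of Rad51c to Rad51b near -0.65. The ratios Hus1 to Rad9a, Atrip to Atr, Palb2 to Brca2, Rad50 to Mre11a, Nbn to Mre11a and Rad51c to Xrcc3 overlap between the groups.

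The authors' tables also give each gene a transcript length, which is a mean over its transcripts weighted by their estimated share, so it moves when the mix of transcripts moves. Of the 37 genes, 18 had several RefSeq transcripts listed, and for 2 of these, Rad1 and Tipin, the listed length did not overlap between the groups, beside 10.7% of the 4910 tested genes with several transcripts. For Rad1 the length was 2590.68, 2433.69 and 2427.34 bases with DMSO and 2270.79, 2267.05 and 2265.16 bases with NUP-17d, a difference of -8.71%. The treated cultures were all shorter and close to each other, and DMSO culture 1 was the longest. For Tipin the difference was -0.07%. Per length, the level of Rad1 (FPKM divided by the TMM factor) was 12.3, 14.0 and 15.1 with DMSO and 11.3, 11.7 and 11.3 with NUP-17d, a log2 difference of -0.27 where the counts gave -0.41. On the deposited FPKM, without composition scaling, Rad1 was 10.9, 13.0 and 13.9 with DMSO and 12.5, 12.9 and 12.2 with NUP-17d, and limma on log2(FPKM + 1) gave a log2 difference of -0.00 (adjusted p = 0.995).

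Levels between genes were compared per length, as FPKM divided by the TMM factor and averaged over the 6 cultures. Topbp1 was highest at 29.2, followed by the fork protein Tipin at 25.9, the kinase Chek2 at 21.3, the clamp subunit Rad9a at 19.6, Blm at 17.6, Clspn at 14.2 and Rad1 at 12.6. The clamp subunits were thus unequal in level, since Hus1 stood at 4.42. The sensor complex had Nbn at 10.9, Rad50 at 9.90 and Mre11a at 6.26, and the kinases at the top of each arm were low, with Atr at 3.58 and Atm at 3.09. Fanconi core genes ranged from Fancg at 6.88 to Fancb at 2.03, and the clamp genes Fancd2 and Fanci stood at 6.60 and 5.45. Brca1 at 8.53 was above Bard1 at 5.09, Brip1 at 3.49, Brca2 at 3.43 and Palb2 at 3.26. The 5 paralogs were low, from Xrcc3 at 5.14 to Rad51b at 1.94, the lowest of the 37.

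**Figure D4:**
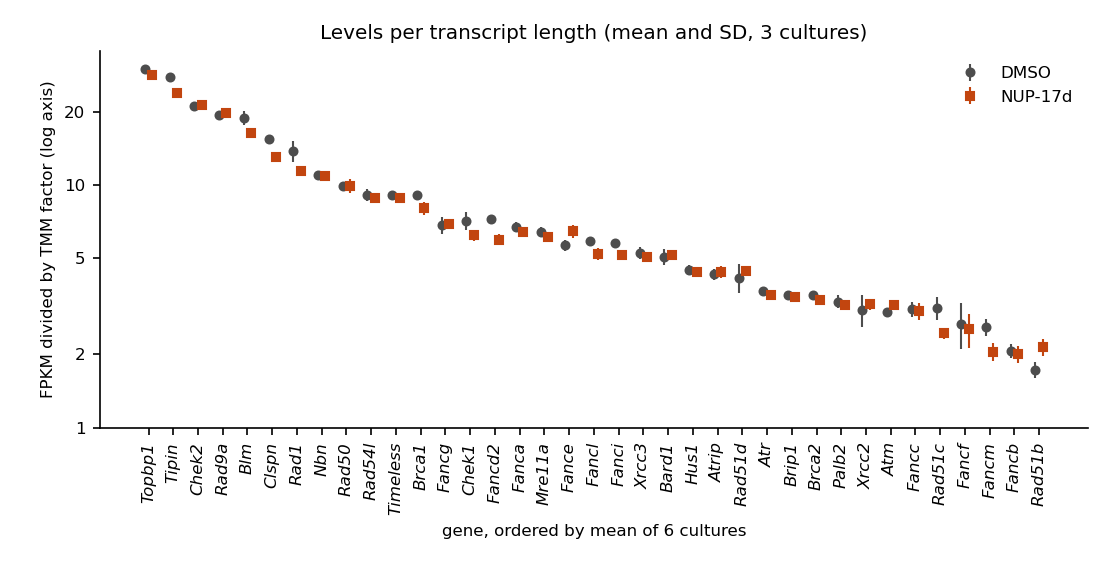
Level per transcript length of the 37 genes, as FPKM divided by the TMM factor on a log axis, ordered by the mean of the 6 cultures, with the mean and SD of the 3 DMSO cultures (circles) and the 3 NUP-17d cultures (squares). Levels run from 29.2 for Topbp1 to 1.94 for Rad51b, and relative to the mean the SD of the DMSO cultures is widest for Fancf, Xrcc2 and Rad51d.

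Other repair genes, from lists of whole pathways, were counted in the same fit. Shares of all tested genes were 18.9% lower and 16.4% higher with TMM, and 5.34% lower and 68.7% higher with library totals only. Among 45 further Fanconi and recombination genes, 15 (33.3%) were called lower and 2 higher at a median log2 fold change of -0.08 with TMM, and 0 lower and 28 higher at a median of 0.19 with library totals only. Polq, the DNA polymerase theta of alternative end joining, had 43.0, 40.1 and 40.8 CPM with DMSO and 34.7, 30.0 and 33.0 with NUP-17d (log2 fold change -0.34, edgeR adjusted p = 1.2e-05), and Fignl1, an ATPase of homologous recombination, had 60.2, 61.2 and 62.5 against 52.4, 52.5 and 52.5 (-0.22, edgeR adjusted p = 9e-05). Both were lower in every treated culture, and with library totals only Polq stood at -0.08 and Fignl1 at 0.04. The 2 called higher, named after their values were seen, were Faap100, a core complex subunit (0.30), and Slx4, a nuclease scaffold (0.18). Among 21 tested genes of checkpoint and break signaling, 7 were called lower and 1 higher, the stress kinase gene Mapkapk2, named after its value was seen, at a median of -0.09 with TMM, and 1 lower and 14 higher at a median of 0.18 with library totals only. Ppm1d, the phosphatase that switches the damage signal off, had 94.2, 93.9 and 97.2 CPM with DMSO and 60.3, 61.6 and 66.1 with NUP-17d (log2 fold change -0.60, edgeR adjusted p = 5.6e-12), and it was lower with library totals only as well (-0.34). Cdc25b, a phosphatase that starts mitosis, stood at -0.26 with TMM and 0.01 with library totals only. Of 10 end joining genes, which rejoin broken ends without a template, edgeR with TMM called 0 in either direction (median -0.07), with 1 lower and 0 higher at an unadjusted p under 0.05, and DESeq2 called 0, whereas library totals only called 7 higher (median 0.20).

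Beside these values, genes of S phase and proliferation changed in the same cultures. Of 39 such genes 29 (74.4%) were called lower and 0 higher with TMM, their summed level was 8199 to 8513 CPM with DMSO and 6564 to 7026 CPM with NUP-17d, and their median log2 fold change was -0.19. Of all tested genes 18.9% were lower and 16.4% higher with TMM. With library totals only, 17 of the 39 were called higher and 4 lower, beside 68.7% and 5.34% of all tested genes. The median of the 39 was then 0.08. E2f2, an E2F factor abundant in erythroid cells, had 1033, 934 and 964 CPM with DMSO and 602, 558 and 590 with NUP-17d, and Rrm2, a subunit of ribonucleotide reductase, had 400, 388 and 400 against 270, 264 and 265. Both were lower in every treated culture under both scalings, with log2 fold changes of -0.74 and -0.57 with TMM and -0.48 and -0.30 with library totals only. The part of the proliferation genes, the erythroid markers and the other cell markers in the change of the repair genes was not tested.

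**Figure D5:**
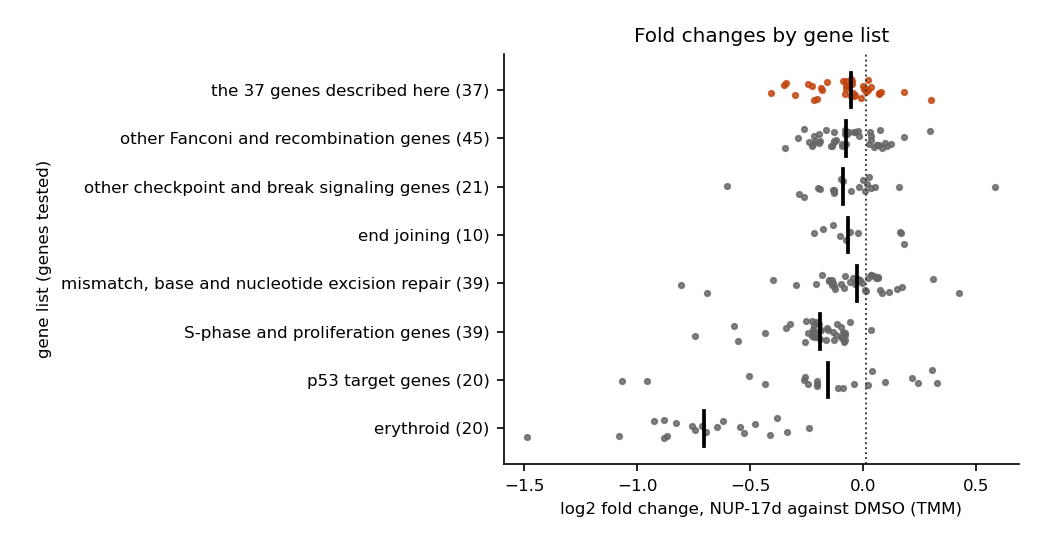
Log2 fold change with TMM of each tested gene in 8 lists, 1 point per gene, with the median of a list as a bar and the median of all tested genes (0.01) as a dotted line. The 37 genes have their median at -0.05, the S-phase and proliferation genes at -0.19 and the erythroid markers at -0.70, whereas with library totals only the first 2 of these medians are 0.22 and 0.08.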

How the data were processed

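RNA of 3 DMSO and 3 NUP-17d cultures was sequenced as single reads of 50 bases. The labels describe a DNBseq run on randomly primed poly(A) RNA, whereas the methods of the study name a stranded kit and another instrument. The authors deposited 1 table per culture with an expected count (an estimated count of reads, not normalized, as the authors made it), an FPKM value, scaled by length and library total with no composition correction, and a transcript length. The build is mm10 per the submitters' processing notes. The aligner, the counting program and its use of strand are not given in the sources used here. A gene missing from a culture's table was taken as 0, and 27.83% to 28.47% of the expected counts were not whole. The dose of NUP-17d comes from a legend of the study.

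Expected counts were rounded and tested in edgeR 4.0.16 (R 4.3.3) with filterByExpr, TMM scaling, the quasi-likelihood test and Benjamini-Hochberg adjustment over 12306 genes, with a threshold of 0.05. Differences are NUP-17d minus DMSO, and ± gives an SE for fold changes. Cultures of a group differed by more than counting noise (chi-square per degree of freedom 1.83 to 4.54), so each counted as 1 sample, and the common biological coefficient of variation was 2.95%. Members were matched by symbol. Gene coordinates and promoters are from RefSeq on GRCm38.p6, the build that mm10 names, and exon overlaps from GENCODE on GRCm38. All 37 genes are named, with values in every culture for the 3 of each role with the lowest p. The 2 genes with the lowest p are named from a context list, up to 4 markers from a cell type list, and beyond this rule the genes of small counts that the text says were named after their values were seen, and a gene that this rule chose is not reported here. The 37 members, the roles and the lists were chosen with earlier results of these data known. Ratios used scipy 1.17.1. Alternatives were DESeq2 1.42.0, RLE size factors, library totals only, no filter, hemoglobin genes removed, limma 3.58.1 with pseudocounts of 1 and 0.1 on log2 FPKM, a replicate block and leaving out each culture. The fits were tested on simulated data. Protein features were not analysed here.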

Additional observations from a re-analysis of the deposited data

How the results depend on the processing

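The values depend most on the scaling of the libraries. Of all tested genes 2019 were higher and 2327 lower with TMM (4346 in all), and 8458 higher and 657 lower (9115 in all) with library totals only. Among the 37 genes, library totals only gave 24 higher, 1 lower and a median log2 fold change of 0.22. The sign changed for 22 of the 37, and among the 10 called lower with TMM for Fanci (0.109), Brca1 (0.0839), Blm (0.0509), Chek1 (0.0632), Clspn (0.0219) and Tipin (0.0403). Limma on log2(FPKM + 1) gave 8423 higher and 636 lower (9059 in all), of the 37 genes 24 higher and 0 lower with a median of 0.17, and changed the sign of 22 of the 37, among the called ones that of Fanci (0.0955), Brca1 (0.0768), Blm (0.0548), Chek1 (0.062), Clspn (0.0242) and Tipin (0.0449). With log2(FPKM + 0.1) these were 8403, 635 and 9038, then 24, 0 and 0.21, with 22 signs changed, Fanci at 0.111, Brca1 0.0846, Blm 0.0578, Chek1 0.0708, Clspn 0.0257 and Tipin 0.0465. Neither library totals nor FPKM carry a composition scaling, and which scaling is right was not tested, since these tables hold no spike-in and no count of cells. DESeq2 called 1162 genes higher and 1809 lower, and 7 of the 37 lower. RLE size factors, no filter and removal of hemoglobin genes each called the same 10 of the 37 lower and 0 higher.

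The replicate numbers did not pair the cultures: deviations from the group means correlated at -0.03 to 0.03 between cultures of one number and at -0.06 to 0.08 between the others. With the replicate block, 10 of the 37 genes were lower, 0 higher and the median was -0.05. Leaving out each culture in turn gave 8 to 10 of the 37 lower, 0 to 1 higher (Fance, without NUP-17d culture 1, edgeR adjusted p = 0.0406) and a median of -0.08 to -0.03. Fanci, Rad51c and Chek1 were the calls lost in some of these. At 57 to 3360 reads per gene and culture, the 95% interval of a log2 fold change spanned from -0.00 to 0.61 for Rad51b and from -0.15 to -0.00 for Topbp1, so the rarest genes were measured with the least precision.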

Other observations

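Of 39 tested genes of mismatch, base and nucleotide excision repair, 9 (23.1%, beside 18.9% of all tested genes) were lower and 1 higher with TMM, with a median log2 fold change of -0.03. Xpa, the scaffold of nucleotide excision repair, had 19.4, 19.1 and 18.4 CPM with DMSO and 12.2, 11.8 and 11.2 CPM with NUP-17d (log2 fold change -0.69, edgeR adjusted p = 7.6e-09). It was lower in 3 of 3 treated cultures, and with library totals only it stood at -0.43. The gene called higher, named after its value was seen, was the glycosylase Smug1 (0.31 with TMM and 0.58 with library totals only). With library totals only, 28 of the 39 were called higher and 2 lower, beside 68.7% and 5.34% of all tested genes.

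Targets of p53, which is switched on by Atm and Chek2 after DNA damage, numbered 20, of which 9 were lower and 2 higher with TMM, Tnfrsf10b (0.33) and Bax (0.22), named after their values were seen. Of all tested genes 18.9% were lower and 16.4% higher with TMM, and 5.34% and 68.7% with library totals only. Gadd45a, a growth arrest gene, had 1472, 1411 and 1463 CPM with DMSO and 675, 677 and 718 CPM with NUP-17d (log2 fold change -1.07, edgeR adjusted p = 9.2e-18), and Btg2, a brake on cell division, had 496, 468 and 467 CPM against 249, 242 and 248 CPM (-0.95, edgeR adjusted p = 3.7e-17). These 2 genes were lower with library totals only too, by -0.80 and -0.69, although 10 of the 20 were then called higher and 4 lower. Of 170 tested genes that the deposited tables annotate with DNA repair, a list chosen after the data had been seen and without the 37, 44 (25.9%) were lower and 9 higher with TMM, with a median of -0.06, and 6 lower and 114 higher with library totals only.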
